A study of Mus musculus with 12 samples.

Results

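The peaks described here are the N6-methyladenosine (m6A) peaks that the deposited annotation places in the 5′ untranslated region (5′ UTR) of a protein-coding transcript in mouse lung. They were chosen by that annotation alone, as every row whose transcript is protein-coding and whose region is given as 5′ UTR. The OVA list held 2328 such peaks among 27292, and the PBS list held 2194 among 26102. They made up 20.4% of the 11419 mRNA peaks (peaks on protein-coding transcripts) of the OVA list and 19.8% of the 11088 mRNA peaks of the PBS list. The mice were female BALB/c, 6 to 8 weeks old, with 3 mice in each group and 1 immunoprecipitated (IP) and 1 input library per mouse, 12 libraries in all. OVA mice, a model of acute allergic asthma, received ovalbumin with aluminium hydroxide by intraperitoneal injection on days 0 and 7 and then breathed 3% ovalbumin aerosol for 30 min a day from day 14 to day 20, whereas PBS mice, the normal controls, received PBS alone. On day 21 the airways were provoked with methacholine, after which lavage fluid and lung tissue were taken; whether the sequenced lungs had been lavaged is not given in the sources used here. Total RNA of lung tissue was fragmented and precipitated with an antibody against m6A. Each group was represented by 1 merged list without values of single mice, so no difference between the lists could be set against the spread between mice and none was tested. The lists held no read counts, and the number of reads behind each value is unknown.

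The 5′ UTR is the stretch of an mRNA between its capped start and its start codon, along which the small ribosomal subunit scans before translation begins. Most m6A in mammalian mRNA lies near the stop codon and in the 3′ UTR, and the methylation in the 5′ UTR is known mainly from cap-independent translation and from stress responses. The writer complex around Mettl3 and Mettl14 prefers an adenosine within the letters GGAC or close variants of them. The first nucleotide after the cap can carry a related mark, m6Am, which is written by Pcif1 and which antibodies against m6A also bind, so precipitation alone does not separate both marks at a transcript start.

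To show what lies under these peaks, stretches of 26 bases around a GGAC on the transcript strand are given for 9 genes that the results below turn on. They were read from RefSeq windows of GRCm38 that run from 250 bases before to 50 bases after a gene's start, and each GGAC lies within the exonic blocks of a 5′ UTR peak of that gene. The capitals mark GGAC, and the position is that of its first G counted from the RefSeq start. Ccl8, H2-D1 and Mmp14 stand for peaks of the OVA list with no overlap or with a far higher fold enrichment there. Paqr7 stands for the opposite direction. Jun, Dusp1, Pcif1, Postn and Hopx carried peaks in both lists.
Ccl8 (chr11:82115189-82115214, + strand, position 16): ttagattgagaGGACgctagccttca
H2-D1 (chr17:35263079-35263104, + strand, position -4): cgcaacccgcgGGACtcagacacccg
Mmp14 (chr14:54431604-54431629, + strand, position 18): ggagaagggagGGACcaaaggagagc
Paqr7 (chr4:134496987-134497012, + strand, position -43): tccagcgcgggGGACgcagcagacag
Jun (chr4:95052188-95052213, - strand, position 21): aggctggataaGGACtcagagttgca
Dusp1 (chr17:26508452-26508477, - strand, position 7): cgcgcagtgaaGGACtggcgggagga
Pcif1 (chr2:164879373-164879398, + strand, position 17): gtcccggcccgGGACacaagatggcg
Postn (chr3:54361111-54361136, + strand, position 16): gatctcttcctGGACggagctcaggg
Hopx (chr5:77115099-77115124, - strand, position 11): ggtggctaaggGGACagggctgagtg
These letters are common at transcript starts. GGAC was present on the transcript strand in 68.0% of the 300-base windows of all protein-coding genes in the table, and within the 50 bases after the start in 4247 of 21263 windows (95% Wilson interval of the share 19.4% to 20.5%). Windows of genes with a 5′ UTR peak held GGAC in those 50 bases in 20.4% of 2737 (19.0 to 22.0), and windows of genes with an mRNA peak but none in the 5′ UTR held it in 20.8% of 4327 (19.7 to 22.1). Read on the opposite strand, GGAC was present in 19.2%, 17.8 to 20.7, of the windows of genes with a 5′ UTR peak and in 21.7%, 20.5 to 22.9, of those without. The shares on the transcript strand thus lay within each other's intervals. The first transcribed base was A in 32.3% (30.5 to 34.0) of the windows with a 5′ UTR peak, in 31.9% (30.6 to 33.3) of those with an mRNA peak elsewhere, and in 44.4% (43.4 to 45.4) of the windows of genes with no deposited peak. A narrower set held the 744 RefSeq starts within 50 bp of an assigned start that lies in the genomic span of its 5′ UTR peak. It gave GGAC in 20.6% and a first A in 35.2%. The median GC content of the 300 bases was 59.3% with a 5′ UTR peak, 58.7% with an mRNA peak elsewhere and 51.7% without a peak. A window was found for 1791 of the 2328 OVA peaks (76.9%) and for 1678 of the 2194 PBS peaks (76.5%), and the RefSeq start lay within 50 bp of the assigned start for 922 and 855 of them.

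Most of the 5′ UTR peaks had a genomic span that held the transcript start. The deposited distance to the assigned start was 0 for 1388 OVA peaks (59.6%, 57.6 to 61.6) and for 1279 PBS peaks (58.3%, 56.2 to 60.3). A distance of 0 means that the genomic span of the peak, introns included, holds the start. Of these peaks, 793 in OVA and 758 in PBS were a single block, whereas in the others the start can fall in an intron. Another 617 OVA and 610 PBS peaks lay 1 to 1000 bp downstream, whereas 53 and 54 lay 1 to 1000 bp upstream. The upstream edge fell within 30 bp of the start in 768 (55.3%) of the OVA peaks at distance 0 and in 715 (55.9%) of the PBS peaks, and in the rest of them it lay more than 30 bp before the start. The downstream edge was spread more widely. For peaks of a single block it lay at a median of 178 bp after the start in OVA (quartiles 95 and 299) and of 181 bp in PBS (quartiles 120 and 303). Peaks over 1000 bp downstream of the assigned start numbered 252 in OVA and 236 in PBS. They were longer, with a median exonic length of 509 and 479 bp against 241 and 269 bp at distance 0, and 53.2% and 53.0% of them spanned at least 1 intron.

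**Figure D1:**
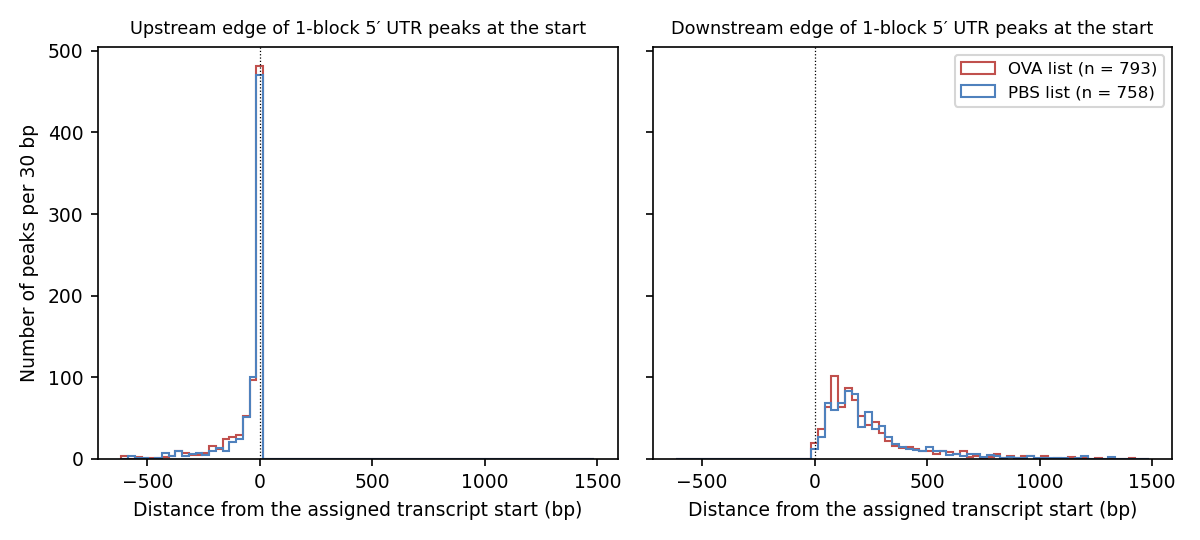
Upstream (left) and downstream (right) edges of single-block 5′ UTR peaks that cover the assigned transcript start, as the distance from that start in bp (horizontal axes) against the number of peaks per 30 bp (vertical axis), for the OVA list (red, n = 793) and the PBS list (blue, n = 758). The upstream edges pile up at the start in both lists, whereas the downstream edges spread with a median of 178 bp in OVA and 181 bp in PBS; edges outside the plotted range are not drawn.

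Splicing was a frequent feature of these peaks. More than 1 exonic block was present in 832 OVA peaks (35.7%) and 754 PBS peaks (34.4%), against 22.7% and 18.6% of the mRNA peaks in exons outside the UTRs and 19.0% and 16.5% of those in the 3′ UTR. The median exonic length was 241 bp in both lists, shorter than the 407 and 390 bp of 3′ UTR peaks. The gene of the peak call and the gene of the annotation were the same for 2247 OVA peaks (96.5%) and 2125 PBS peaks (96.9%), whereas both genes differed for 23.0% and 22.9% of all mRNA peaks. Some rows describe the same stretch: 114 OVA peaks (4.9%) and 93 PBS peaks (4.24%) overlapped another 5′ UTR peak of their own list (63 and 52 overlapping pairs), and 41 of these pairs in OVA and 34 in PBS were called on different genes. A transcript start of another gene on the opposite strand lay within the blocks of 26 OVA and 29 PBS peaks. For such peaks the gene cannot be told apart, since the use of strand in peak calling is not given in the sources used here.

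Fold enrichment, the ratio of IP to input reads in a peak, was moderate in the 5′ UTR. Its median was 5.48 in OVA (quartiles 3.1 and 10.7) and 5.58 in PBS (quartiles 3.11 and 10.4). The mRNA peaks of the 3′ UTR had medians of 6.67 and 6.42, and those of exons outside the UTRs 5.39 and 5.1. A false discovery rate under 0.05 was listed for 2272 OVA and 2137 PBS peaks, and a fold enrichment of at least 10 for 644 (27.7%) and 588 (26.8%), against 36.8% and 34.6% of the 3′ UTR peaks. Within genes to which the annotation assigned peaks at both ends, the highest 3′ UTR peak usually exceeded the highest 5′ UTR peak. This comparison has limits. Of the 3′ UTR peaks, 34.1% in OVA and 33.8% in PBS were called on another gene than the assigned one. The 3′ UTR also held more peaks to take the highest from (5917 against 2328 in OVA). Of 666 such genes in OVA, 205 (30.8%) had the higher fold enrichment in the 5′ UTR, and the medians of the best peaks were 6.08 in the 5′ UTR and 11.3 in the 3′ UTR. Of 640 in PBS, 213 (33.3%) did, with medians of 6.08 and 10.4.

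**Figure D2:**
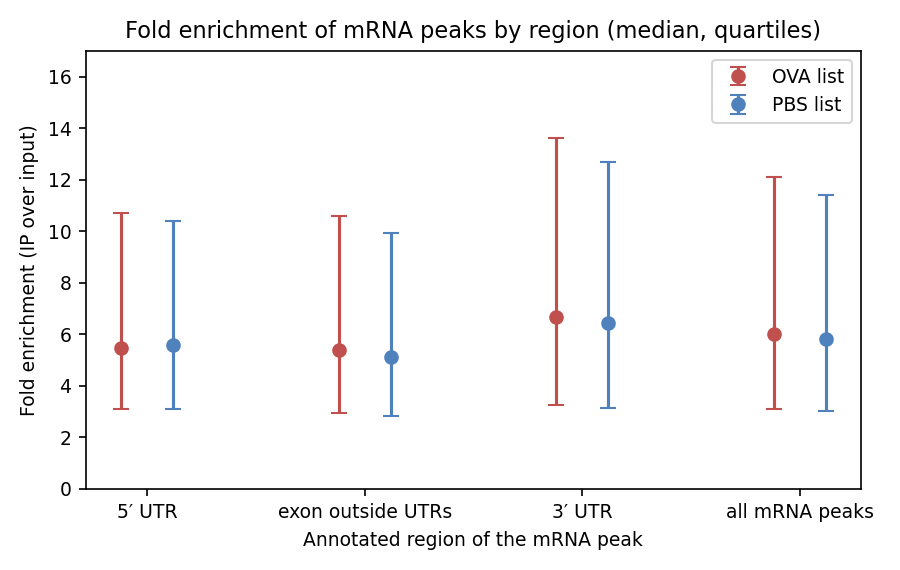
Fold enrichment of IP over input (vertical axis) of mRNA peaks by annotated region (horizontal axis); points are medians over peaks, bars reach to the quartiles, red is the OVA list and blue the PBS list. The 5′ UTR medians of 5.48 and 5.58 sit beside those of exons outside the UTRs and below the 3′ UTR medians of 6.67 and 6.42.

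A few 5′ UTR peaks stood far above the rest, and the highest ones were largely shared. The highest value of all mRNA peaks in both lists belonged to 1810013L24Rik, a gene listed under its RIKEN cDNA name, with a fold enrichment of 275 in OVA and 227 in PBS. Its peak covered 449 bp at chr16:8830099-8830548 in OVA, and the same gene's 3′ UTR peaks ranged from 1.71 to 11.1 there. Smad7, an inhibitor of TGF-β receptor signalling, had 162 in OVA and 141 in PBS, over 690 and 720 bp that hold an assigned transcript start. A second Smad7 5′ UTR peak lay further upstream, 149 bp (OVA) and 29 bp (PBS) after another assigned start, with only 4.22 and 3.56. Kctd1, a nuclear repressor of transcription, had 174 and 139. Rrbp1, a ribosome-binding protein of the endoplasmic reticulum, had 198 and 104 in a peak of 2 blocks with 2070 and 1980 exonic bp. Itpr1, a calcium channel of the endoplasmic reticulum, had 158 and 80.1, and its OVA peak reached across an intron, with 2 blocks against 1 in PBS. Wdr13, a WD repeat protein, was among the 5 highest in PBS with 85.9 but had 14 in OVA. Of these 6 genes, all but Wdr13 had the higher value in the OVA list. They were chosen for these same values, Itpr1 through OVA alone and Wdr13 through PBS alone. The direction is thus partly fixed by the choice and shows no lean towards either list.

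Genes with a 5′ UTR peak numbered 2086 in OVA and 1981 in PBS, of which 1456 were in both lists. They made up 32.5% and 31.8% of the genes with any mRNA peak. For 1153 OVA genes (55.3%) and 1069 PBS genes (54.0%), the 5′ UTR was the only region with an mRNA peak. Peaks of the same genes on other transcript types are left out of this count, so it does not mean that the gene had no other peak. In OVA, for example, Axin2 and Bmp4 had 3′ UTR peaks of 26.5 and 19 on such transcripts. Of the 630 genes with a 5′ UTR peak in OVA only, 269 had an mRNA peak in another region in PBS, 251 had only peaks on other transcript types there, and 110 had no deposited peak. Of the 525 genes in PBS only, the corresponding numbers in OVA were 246, 197 and 82. Most genes carried a single 5′ UTR peak, 1869 in OVA and 1788 in PBS. Anks1, an ankyrin-repeat adaptor protein, carried the most in PBS, with 5 peaks of fold enrichment 2.27 to 9.87, and 4 in OVA with 2.67 to 7.43. Glul (glutamine synthetase), Macf1 (a linker of microtubules and actin), Arhgef17 (a guanine nucleotide exchange factor), Tlcd1 and Usp27x also had 4 in OVA, but those of Glul and Usp27x partly overlap each other. Of these peaks, 3 of Glul, 2 of Arhgef17 and 1 of Tlcd1 in OVA, and that of Anks1 with 9.87 in PBS, were called on another gene than the one they are assigned to. Usp27x, a deubiquitinase gene on the X chromosome, has a pair of OVA peaks, with fold enrichments of 10.5 and 6.06, that are each listed again with the same value and nearly the same coordinates. On the autosomes and the X chromosome, 5′ UTR peaks made up 16.7% (chromosome 10) to 24.6% (chromosome 3) of the mRNA peaks in OVA and 17.1% (chromosome 8) to 25.1% (chromosome 3) in PBS, and none lay on mitochondrial DNA, which held 6 and 11 mRNA peaks.

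Whether the peaks of one group were found in the other was asked by overlap of exonic blocks, by at least 1 bp, with any deposited peak. Of the OVA 5′ UTR peaks, 568 had no overlapping PBS peak (24.4%, 22.7 to 26.2), where all OVA mRNA peaks gave 18.3%. Of the PBS 5′ UTR peaks, 442 had no overlapping OVA peak (20.1%, 18.5 to 21.9), where all PBS mRNA peaks gave 14.4%. The share was 14.3% and 10.2% in the 3′ UTR and 21.5% and 18.1% in exons outside the UTRs. The 5′ UTR shares thus exceeded those of all mRNA peaks in both lists, and the intervals cover counting error only, not the spread between mice. Peak length moved with this share. Peaks of up to 150 exonic bp made up 26.2% of the OVA 5′ UTR peaks and 15.0% of the OVA 3′ UTR peaks, and 55.5% (51.5 to 59.4) and 55.3% (52.0 to 58.5) of them had no overlap in PBS. Above 300 bp the shares were 3.24% (2.28 to 4.59) in the 5′ UTR and 1.78% (1.4 to 2.26) in the 3′ UTR. In PBS the shortest class gave 50.1% (46.0 to 54.2) in the 5′ UTR and 41.9% (38.7 to 45.3) in the 3′ UTR, and the longest gave 1.9% (1.19 to 3.01) and 0.858% (0.602 to 1.22). Strength moved with it as well: 51.8% of the OVA 5′ UTR peaks with a fold enrichment under 2 had no overlap in PBS, against 13.2% of those at 10 or more and 5.59% of those at 20 or more. The part of length and strength in the difference between regions was not tested further.

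**Figure D3:**
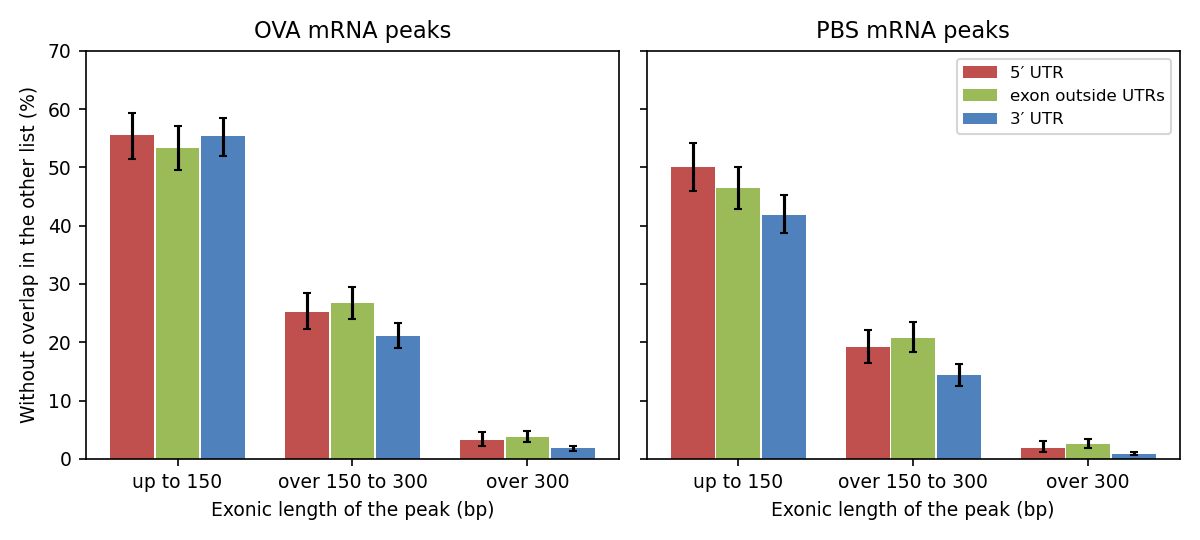
Share of mRNA peaks with no overlapping peak in the other list (vertical axes, %) by exonic length of the peak (horizontal axes, bp) for OVA (left) and PBS (right); colours are the annotated regions and bars are 95% Wilson intervals. The share falls from 55.5% in the shortest to 3.24% in the longest OVA 5′ UTR peaks, and in the shortest class the intervals of the regions overlap in OVA, whereas 5′ UTR (50.1%) and 3′ UTR (41.9%) are apart in PBS.

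When a 5′ UTR peak did overlap a peak of the other group, its best partner mostly bore the same annotation. The PBS peak with the largest overlap was itself a 5′ UTR mRNA peak for 1532 OVA peaks (65.8% of all 2328, those without overlap included). For 107 it was placed in an exon outside the UTRs, for 38 in a 3′ UTR and for 83 on another transcript type, among them 40 retained introns. In the reverse direction 1533 PBS peaks (69.9% of all 2194) met a 5′ UTR mRNA peak, 84 an exon, 37 a 3′ UTR and 98 another transcript type. Ccr2, the receptor for monocyte chemoattractant chemokines, shows such a change of label. Its PBS peak of 1078 bp with a fold enrichment of 13.5 counts as 5′ UTR, while the overlapping OVA peak of 1168 bp with 15.4 is placed in a 3′ UTR. The edges of paired peaks also differed by end. Among 857 single-block pairs in the 5′ UTR in both lists, the upstream edge was identical in 442 (51.6%) and the downstream edge in 274 (32.0%).

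By p value, the leading OVA 5′ UTR peak without any overlap in PBS was that of Ccl8, a chemokine that attracts monocytes, T cells and eosinophils. It covered the transcript start shown above, with a fold enrichment of 3.32 over 199 exonic bp and a log10 p of -1290, and neither Ccl8 nor Wfdc17 had a deposited peak in PBS. Wfdc17, a whey acidic protein domain gene of macrophages, had 4.85, Ms4a7, a membrane protein of macrophages, 4.32, Htr2b, a serotonin receptor, 6.16, and H2-D1, a class I histocompatibility molecule, 1.96 over 61 bp, beside a second OVA 5′ UTR peak with 3.97 that did overlap a PBS peak. H2-D1 has near-identical relatives, so its reads are uncertain. The fold enrichments of these 5 peaks were thus at most 6.16.

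The corresponding PBS peaks without overlap in OVA were those of Myh6 with a fold enrichment of 3.3, Nr1d1 with 2.93, Fmo2 with 1.7, Myl4 with 2.47 and Fpr2 with 8.06. Nr1d1 is a repressor of the circadian clock, Fmo2 the flavin-containing monooxygenase of lung, and Fpr2 a receptor for formylated peptides on neutrophils and macrophages. Myh6 and Myl4 encode myosin chains of heart muscle. Among 12 genes of heart muscle, a list written after these names were seen, 6 (Myh6, Myh7, Myl4, Tnnt2, Sln and Pln) had a 5′ UTR peak in PBS and 0 had one in OVA, where all genes gave 1981 and 2086, of which 525 were in PBS only. Myh6 and Myl4, which prompted the list, are among the 6. Of the same 12 genes, 9 had a peak of any kind in PBS and 3 in OVA, where peaks of any kind were assigned to 13569 gene identifiers in PBS and 14126 in OVA, while Myl7, Nppa and Actc1 had none in either list. Peaks are called where the input has reads, so a gene's peak moves with its RNA level as well as with methylation, and these cannot be told apart in these lists. The part of heart tissue in these PBS peaks was not tested.

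Fold enrichments of paired peaks were correlated between the lists. A 5′ UTR peak of at least 1 list and its best-overlapping partner formed 1791 pairs, over which the log2 ratio of OVA to PBS fold enrichment had a median of 0.12 (quartiles -0.27 and 0.47). In 163 pairs (9.1%) the OVA value was at least 2-fold higher, where all 8851 paired mRNA peaks gave 8.36%. In 141 pairs (7.87%) the PBS value was at least 2-fold higher, where all paired mRNA peaks gave 5.39%. All pairs had a median log2 ratio of 0.14, so relative to them the 5′ UTR median was -0.03, and 133 pairs were then at least 2-fold higher in OVA and 169 in PBS. Across pairs, which are not independent replicates, Pearson's r of the log2 fold enrichments was 0.74 for the 5′ UTR and 0.81 for all mRNA pairs. It was 0.77 for exons outside the UTRs and 0.85 for the 3′ UTR. By level of the peaks, of the 573 pairs with a fold enrichment under 5 in both lists, 7 were at least 2-fold higher in OVA and 8 in PBS, against 52 and 41 of the 214 pairs that reached 20 in at least 1 list. Both classes are set by the values that form the ratio, so this contrast is a description only and is partly fixed by the classes.

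**Figure D4:**
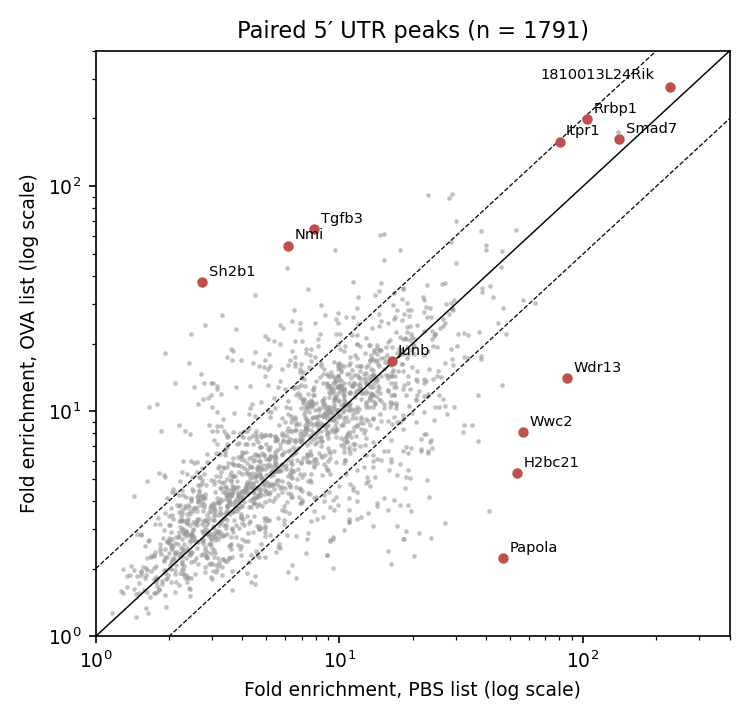
Fold enrichment in the OVA list (vertical axis, log scale) against that in the PBS list (horizontal axis, log scale) for the 1791 pairs with a 5′ UTR peak in at least 1 list; the solid line marks equal values and the dashed lines a 2-fold difference. Most pairs lie between the dashed lines, and red points mark named peaks, such as Sh2b1 (37.5 in OVA, 2.74 in PBS) and Papola (2.22 in OVA, 46.9 in PBS).

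Among pairs that covered at least 50% of each other, the largest ratio in favour of OVA was that of Sh2b1, an adaptor of insulin and cytokine receptors, with a fold enrichment of 37.5 in OVA and 2.74 in PBS over 299 bp in each list. Another Sh2b1 peak, on a nonsense-mediated decay transcript, had 16.6 and 11.7, so the gene's peaks did not differ alike. Mmp14, a membrane-bound matrix metalloproteinase, had 18.2 and 1.92, where the PBS peak was assigned to a retained-intron transcript, while its next peak downstream had 4.42 and 8.66. Nmi, an interferon-induced partner of STAT proteins, had 54.4 and 6.17 over the same 449 bp. Tgfb3, a growth factor of the TGF-β family, had 64.3 in a single OVA peak of 1408 bp, under which the PBS list held 2 peaks with 7.9 and 11.6. Ephx1, the microsomal epoxide hydrolase, had 16.4 and 2.41.

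In the opposite direction, Papola, the canonical poly(A) polymerase, had 46.9 in PBS and 2.22 in OVA, while its last 3′ UTR peak had 5.14 and 6.71. The 5′ UTR peak of Papola had 2 blocks in PBS and reached across an intron to chr12:105799730. In OVA it ended at chr12:105784904, so the stretches compared are not the same. H2bc21, a replication-independent copy of histone H2B, had 53.8 in PBS and 5.33 in OVA, and its 3′ UTR peak went the other way with 8.88 in PBS and 22.2 in OVA. Histone genes share sequence, so reads of H2bc21 are uncertain. Wwc2, a WW domain protein, had 56.8 in PBS and 8.07 in OVA, and a second overlapping pair called there had 25.7 and 11.8. Paqr7, a membrane progestin receptor, had 23.8 and 2.74, and Ano6, a phospholipid scramblase, had 27.1 and 3.18. These 10 pairs were chosen for their ratios among pairs that cover at least 50% of each other, have an FDR under 0.05 in both lists and are called on their assigned gene, and they have no replicate check.

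Among gene lists, immediate early genes, which are transcribed within minutes of a stimulus, often carried 5′ UTR peaks. Of 44 such genes, 36 had an mRNA peak and 22 (61.1% of those 36) a 5′ UTR peak in at least 1 list, where all 7085 genes with an mRNA peak gave 36.9%. The count was 17 in OVA and 22 in PBS, and all 17 were in both. Over all genes the count was 2086 in OVA and 1981 in PBS, with 1456 in both and 525 in PBS only. Junb, a subunit of the AP-1 transcription factor, had 16.7 in OVA and 16.4 in PBS with identical edges. Jun, its relative, had 9.32 and 9.27 with identical edges over 1074 bp. Fosb, an AP-1 subunit, had 15.4 and 23.4, Dusp1, a phosphatase of MAP kinases, 10.2 and 12, and Klf4, a zinc finger transcription factor, 7.69 and 9.71. Nfkbia, the inhibitor of NF-κB, had 13.3 in OVA and 2.96 in PBS. The 5 genes with a 5′ UTR peak in PBS only were Egr1 at 3.19, Ier5 at 3.41, Myc at 6.51, Mycl at up to 13.1 and Zfp36l1 at 1.81, and those of Ier5 and Zfp36l1 overlapped an OVA peak of another annotation.

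Genes of the TGF-β, BMP, Wnt and Notch pathways gave the highest share among the 8 pathway lists. Of 52 with an mRNA peak, 39 (75%) had a 5′ UTR peak, where all genes gave 36.9%. The count was 31 in OVA and 38 in PBS, with 30 in both. Beside Smad7, its relative Smad6 had 23.4 in OVA and 25.8 in PBS, Smad5, a transducer of BMP signals, 14.3 and 16.9, and Fzd8, a Wnt receptor, 24.8 and 15.9. Rnf43, a ubiquitin ligase that removes Wnt receptors, had 14.5 and 15.8, and the ligand Bmp4 had 9.46 and 16.8. Axin1, a scaffold of β-catenin degradation, had 17.2 in OVA and was placed in an exon in PBS with 11.8. Over the 41 pairs of this list the median log2 ratio was -0.05, with 1 pair at least 2-fold higher in OVA and 3 in PBS. All paired mRNA peaks gave a median of 0.14, with 8.36% higher in OVA and 5.39% in PBS. Some of these pairs set unlike stretches against each other. Gsk3b had 15.8 in a single PBS peak, under which the OVA list held peaks with 13.2 and 2.4. Where 525 of the 1981 PBS genes were in PBS only over all genes, 8 of the 38 of this list were, namely Bmp5, Fzd2, Inhba, Lrp5, Notch4, Smurf2, Wnt11 and Wnt7b, of which Fzd2, Smurf2 and Wnt11 had a peak without any overlap in OVA.

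Transcription factors of lung lineages gave 37 of 63 (58.7%), with 30 genes in OVA, 35 in PBS and 28 in both. All genes with an mRNA peak gave 36.9%. In PBS only were 7 of the 35, where 525 of the 1981 PBS genes were over all genes. Irx5, an Iroquois homeobox factor, had 17.3 in OVA and 33.6 in PBS, Ets1, a factor of endothelium and lymphocytes, 15.1 and 25.4, and Sox4, a factor of developing tissues, 20.8 and 16.1. Gata4, a factor of heart and foregut development, had 22.1 and 10.1, Foxf2, a factor of mesenchyme, 4.18 and 23.4, and Gli3, an effector of hedgehog signalling, was listed in PBS only with 20.7. Over all annotated genes, 6.47% (5.58 to 7.48) of the 2598 genes with a 5′ UTR peak bore the term DNA-binding transcription factor activity, against 4.37% of the 4420 genes with mRNA peaks elsewhere. The term nucleus was borne by 37.3% (35.5 to 39.2) and 31.1%, plasma membrane by 25.2% (23.6 to 26.9) and 21.1%, and translation by 0.577% (0.35 to 0.95) and 1.43%. Regulation of transcription was borne by 9.35% (8.29 to 10.5) and 8.85%, RNA binding by 4.66% (3.91 to 5.54) and 4.59%, and inflammatory response by 2.04% (1.56 to 2.66) and 1.99%. For the other terms the shares were 7.97% and 9.82% (mitochondrion), 6.77% and 7.15% (extracellular region), 3.04% and 2.44% (immune system process), 3.16% and 2.71% (G protein-coupled receptor activity) and 3.58% and 2.9% (protein ubiquitination).

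Genes of protein synthesis were described in a pair of lists. Of 79 cytosolic ribosomal protein genes, 10 had an mRNA peak in OVA, and 0 of these had one in the 5′ UTR there, where all OVA genes with an mRNA peak gave 32.5%. Of 45 initiation and elongation factor genes, 12 had an mRNA peak and 4 of these (33.3%) a 5′ UTR peak in at least 1 list, near the 36.9% of all genes. Eif4ebp2, a repressor of cap-dependent initiation, had 4.25 in OVA and 8.64 in PBS, and Eif4g3, a scaffold of the initiation complex, had 6.42 in both. Eif2s1, the subunit of eIF2 whose phosphorylation lowers initiation under stress, had 11.3 in OVA, where the overlapping PBS peak lay on a retained-intron transcript with 7.16. Eif6, a factor of the large ribosomal subunit, had 5.9 in OVA only. Genes of the heat shock and integrated stress responses gave 8 of 18 (44.4%), 6 in each list. Dnajb1, a co-chaperone of Hsp70, had 11.1 and 9.92, Atf5, a stress-responsive transcription factor, up to 8.01 and 8.1, Ddit4, an inhibitor of mTOR, 5.57 and 3.17, and Ppp1r15a, which restores initiation by dephosphorylating eIF2, 16.9 in OVA and 3.64 in PBS.

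**Figure D5:**
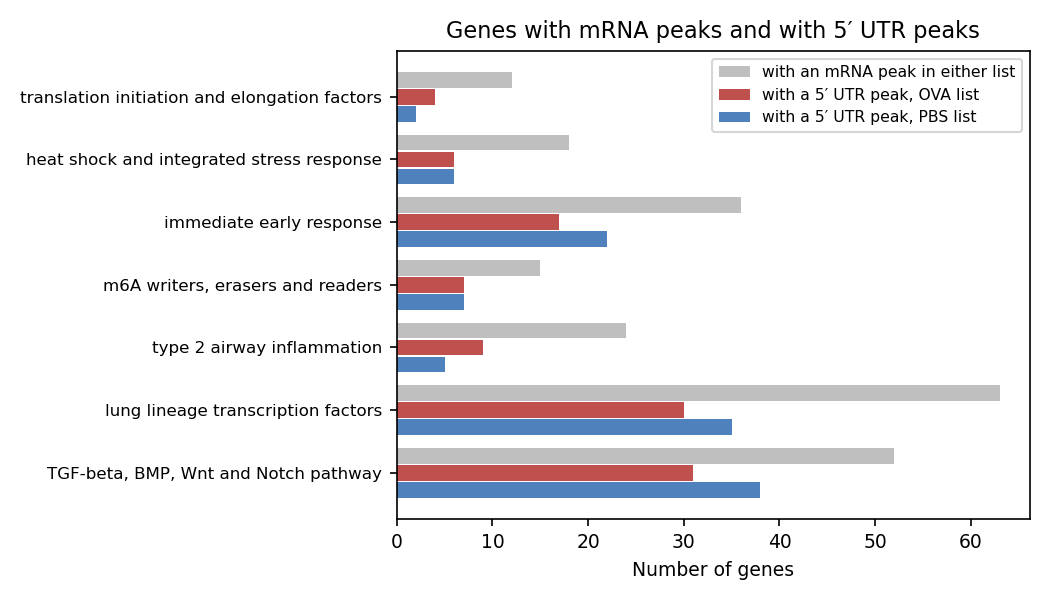
Number of genes (horizontal axis) of the pathway lists shown (vertical axis; ribosomal proteins are not drawn) with an mRNA peak anywhere in either list (grey) and with a 5′ UTR peak in the OVA list (red) or the PBS list (blue). For the TGF-β, BMP, Wnt and Notch list, 31 OVA and 38 PBS genes of 52 had a 5′ UTR peak, whereas 4 and 2 of 12 initiation and elongation factor genes did.

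Genes of the m6A machinery themselves bore 5′ UTR peaks in 8 of 15 cases (53.3%), 7 in each list, where all genes with an mRNA peak gave 36.9%. Mettl4, a methyltransferase of the Mettl3 family, had 8.65 in OVA and 8.07 in PBS. Pcif1, the writer of m6Am, had 5.65 and 5.43 at the start shown above. Alkbh5, an m6A demethylase, had 3.62 and 3.64, and a second 5′ UTR peak of 8.14 in PBS overlapped an OVA peak on a processed transcript with 21. Ythdc1, the nuclear m6A reader, had 3.59 in OVA and 7.9 in PBS. Rbm15b, an adaptor of the writer complex, had 15.3 in PBS only, while its relative Rbm15 had 5.65 in OVA and 2.37 in PBS, and the PBS peak with the largest overlap lay on a retained-intron transcript with 8.78.

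Genes of type 2 airway inflammation, the response that ovalbumin raises in the lung, were the list with the largest surplus of genes on the OVA side. Of 24 with an mRNA peak, 11 (45.8%) had a 5′ UTR peak, where all genes gave 36.9%. The count was 9 in OVA and 5 in PBS, with 3 in both. Over all genes it was 2086 and 1981, of which 630 were in OVA only and 525 in PBS only. The 6 genes in OVA only were the chemokines Ccl8 at 3.32 and Ccl9 at 1.97, the receptor Ccr8 of type 2 helper T cells at 4.92, their transcription factor Gata3 at 1.82, the shared cytokine receptor chain Il2rg at 2.41 and Spdef, the factor of goblet cells, at 2.57. Ccl8 and Ccl9 had no deposited peak of any kind in PBS, while the OVA peak of Ccr8 overlapped a PBS peak that is assigned to another gene. Stat6, the transducer of interleukin 4 signals, had 2.56 over 61 bp in PBS only, and Chil3, a chitinase-like protein of macrophages, 1.75 over 60 bp. Of the genes in both lists, Il7r, a receptor of interleukin 7 and thymic stromal lymphopoietin, had 3.96 and 7.01, and Postn, a matrix protein induced by interleukin 13, 1.88 and 1.98. Ccr2 counts in both lists through different peaks: its OVA 5′ UTR peak, with 5.39 over 390 bp, had no overlap in PBS. Among the 11 genes only Ccr2 and Il7r had a 5′ UTR peak above 5.39, both in PBS.

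The marker lists of lung cell types held 8 genes each, of which 1 to 5 had an mRNA peak, too few to set against the 36.9% of all genes. The presence of a peak is no measure of cell number or RNA level. Hopx, a factor of type 1 alveolar cells, had 4.26 in OVA and 2.62 in PBS, Ager, their surface receptor, 1.59 and 1.27, and Cav1, a caveolar protein of type 1 and endothelial cells, 1.96 and 1.68, while Aqp5, their water channel, had 3.06 in PBS only. Lamp3 of type 2 alveolar cells had 2.25 and 1.92. Scgb1a1, the secretory protein of club cells, had 2.9 and 2.2, and Foxj1, the factor of ciliated cells, 10.9 and 7.98. Tek, an endothelial receptor, had 10.1 and 9.75, and Sox17, a factor of endothelium, 2.52 and 4.26. Pdgfra, a receptor of fibroblasts, had 9.24 and 18.3, and Tcf21, a factor of mesenchyme, 5.15 and 3.73. Of the 8 markers each of macrophages, of T and B cells, and of granulocytes and mast cells, 1 in each list of markers had a 5′ UTR peak, Chil3 and S100a9 in PBS and Cd4 in OVA.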

How the data were processed

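MeRIP-seq (IP) and RNA-seq (input) libraries of 3 OVA and 3 PBS lungs were analysed from 1 deposited peak list per group. According to the methods, the authors trimmed reads with FASTP, aligned them with HISAT2 to the Ensembl mouse genome, used exomePeak for peak calling and ChIPseeker for annotation; how mice were combined and whether strand was used are not given in the sources used here. Coordinates are given as in the lists (GRCm38). The deposited fold enrichment is a ratio of IP to input. The deposited log10 p-value column was used as a score for ranking, and the deposited FDR column as a limit for counting and filtering peaks. Neither column was used to test a difference between the lists. No counts were analysed here, so the reads behind a peak are unknown and Wilson intervals (95%) cover counting error over peaks only. Columns of no sample of the series numbered 0.

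Peaks were compared by overlap of exonic blocks of at least 1 bp, and pairs are each other's best overlap. The overlap step was tested on simulated data. Fold differences of 2 and a distance of 1000 bp served as limits. Named genes were, among peaks at FDR under 0.05 called on their assigned gene, the 5 highest fold enrichments, the 5 lowest p without overlap, the 5 largest ratios in each direction, and up to 4 per gene list; further genes of the lists, such as those in 1 list only, were named after their values were seen; genes with most peaks were taken over all 5′ UTR peaks, without this filter. The peaks, gene lists, terms and rules were chosen with earlier results of these data known. Python 3 with pandas, numpy and scipy was used. 1 gene is not reported here.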

Additional observations from a re-analysis of the deposited data

How the results depend on the processing

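No paired analysis was possible because the deposited lists hold 1 merged call per group and no values of single mice; for the same reason no replicate could be left out and no difference between OVA and PBS was tested. Of 92 alternatives, 78 stayed within 1.5 times the main count or within its 95% interval. The share of 5′ UTR peaks without overlap was 36.3% in OVA and 31.9% in PBS when the shared bases had to cover 50% or more of each peak, 27.4% and 23.7% against mRNA peaks only, and 89.3% and 88.6% when start and end had to be identical; each requirement is stricter by construction. Keeping peaks with a fold enrichment of at least 2 gave 22.2% in OVA and raised the median fold enrichment to 5.99 in OVA and 6.17 in PBS, since it removes the lowest values. With a 1.5-fold limit, 358 pairs were higher in OVA and 281 in PBS, and with a 3-fold limit 72 and 64. Relative to the median of all mRNA pairs, an alternative added after seeing the data, the median log2 ratio of 5′ UTR pairs became -0.03, so its sign rests on the scale. Overlapping peaks of 1 list counted once, also added later, left 2270 OVA and 2146 PBS peaks. A second count, with overlapping peaks merged, left 2269 OVA and 2146 PBS peaks.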
